A study of Arabidopsis thaliana with 12 samples.

Results

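GLDH (AT3G47930) and AT4G02580 are nuclear genes of Arabidopsis thaliana whose proteins work in the mitochondrion, and they are described here in WT and in the prors1 mutant, both kept overnight without light. Both have a probe of their own on the array, meaning a probe whose platform annotation names no other gene, and they were selected on how their deposited intensities compared between prors1 and WT, with zeros included. They are 2 of 691 genes with such a probe, and each has 1 such probe among the 3439 on the array. No further probe names either gene together with others (0 probes). Because the contrast between prors1 and WT took part in the choice, their levels and differences are given as a description and carry no test.

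GLDH encodes L-galactonolactone dehydrogenase, the flavoenzyme of the inner mitochondrial membrane that makes ascorbate (vitamin C) and hands its electrons to cytochrome c. In plants the same protein is also bound to assembly intermediates of respiratory complex I, and mature complex I is scarce without it. AT4G02580 encodes an iron-sulphur subunit of the matrix arm of complex I, which oxidises NADH and passes electrons to ubiquinone. Plant mitochondria respire in leaves through the night, when the chloroplasts make no ATP from light.

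The series holds 12 samples of total RNA on a single-channel array, 6 titled WT and 6 titled prors1, of ecotype Columbia 0 per the source label. The labels describe prors1 as lacking prolyl-tRNA synthetase, which charges transfer RNA with proline for protein synthesis, and both groups spent the night in the dark. Since every sample carries a source label that names WT, group membership was read from the titles alone. The mutant allele, the tissue and the age of the plants were not given in the sources used here. PRORS1 is named on 0 probes, so its level could not check the titles.

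Neighbouring columns of a group (1 with 2, 3 with 4, 5 with 6) were so alike that each pair was treated as repeated readings of a single array. Over the tested probes, the correlation within such a pair was at least 0.949 in WT and at least 0.976 in prors1, whereas any other pairing inside a group reached at most 0.919 in WT and 0.929 in prors1. Averaging the readings left 3 arrays per group. Nothing in the labels says that the arrays carry RNA of separate plants, so every spread below may be technical. Columns of prors1 had a higher median over nonzero values, 0.407 to 0.520, against 0.224 to 0.289 for WT columns. Total intensity per column overlapped between the groups, at 2632 to 3456 in prors1 and 2312 to 2840 in WT. The columns thus differed in how their values were distributed and not only in scale. Values are therefore given as deposited, as a position within the column, and after normalization. Precision is limited by the number of arrays. In bulk RNA, fewer cells of a type and less RNA per cell cannot be told apart.

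As deposited, GLDH was at nearly the same intensity in both groups. In WT its intensity was 0.269 and 0.306 on array 1, 0.402 and 0.378 on array 2, and 0.343 and 0.288 on array 3. In prors1 it was 0.232 and 0.240 on array 1, 0.390 and 0.379 on array 2, and 0.282 and 0.235 on array 3. The groups overlapped, and array 2 held the highest values in both. The mean intensity of GLDH was 0.331 ± 0.053 in WT and 0.293 ± 0.080 in prors1 (SD, n = 3 arrays), a ratio of 1.13 of WT over prors1. Set against the array of the same number, GLDH was lower in prors1 on 3 of 3 arrays and in 5 of 6 single columns. On array 2 the mean intensities lay as close as 0.390 in WT and 0.384 in prors1.

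**Figure D1:**
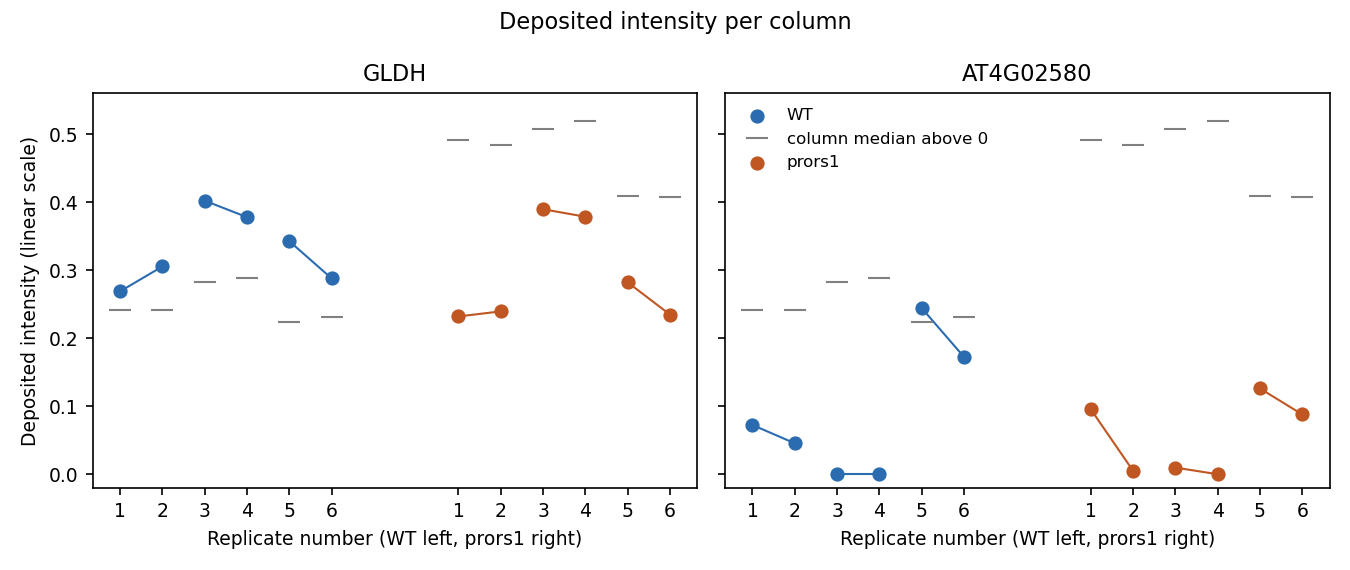
Deposited intensity (y axis, linear scale) of GLDH and AT4G02580 in each of the 12 columns (x axis, replicate number, WT left and prors1 right); points are single columns, lines join the 2 readings of 1 array, and grey dashes mark the median of the column's values above 0. GLDH lies above that median in 6 of 6 WT columns and below it in 6 of 6 prors1 columns, while its own intensity overlaps between the groups.

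Among the other transcripts of its own column GLDH stood lower in prors1 than in WT. In WT between 61.5% and 72.7% of the probes of a column lay below GLDH, with a mean of 66.6% ± 2.7 (SD, n = 3 arrays). In prors1 between 27.3% and 45.5% lay below it, with a mean of 36.4% ± 8.6. The ranges did not overlap, and GLDH passed from above the middle of the array to below it. This position does not depend on any scaling of a whole column. It does depend on the levels of the other probes, whose median over nonzero values was higher in prors1.

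AT4G02580 was dim in both groups and uneven between arrays. In WT its intensity was 0.0724 and 0.0455 on array 1, was listed at 0 in both columns of array 2, and was 0.244 and 0.173 on array 3. In prors1 it was 0.0955 and 0.0050 on array 1, 0.0098 and a listed 0 on array 2, and 0.126 and 0.0879 on array 3. The groups overlapped. Averaged over the readings of an array, array 3 was the highest and array 2 the lowest in both groups (0.209 and 0 in WT, 0.107 and 0.0049 in prors1). The mean intensity was 0.0892 ± 0.11 in WT and 0.0540 ± 0.051 in prors1 (SD, n = 3 arrays), a ratio of 1.65 of WT over prors1, and the difference between the means is smaller than the SD of either group.

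The position of AT4G02580 within its column overlapped between the groups as well. Between 7.42% and 59.9% of the probes of a WT column lay below it, and between 6.88% and 19.0% of the probes of a prors1 column, with probes tied at 0 counted at the middle of the tie. In 4 of 6 WT columns and 5 of 6 prors1 columns its intensity was at or below 0.0987, the 10th percentile of all values above 0 in the table, which serves below as the pseudocount. By array, 22.3%, 7.46% and 51.6% of probes lay below the gene in WT, and 14.6%, 10.4% and 17.3% in prors1. WT arrays 1 and 3 thus lay above the prors1 arrays, array 3 by the wider margin, and WT array 2 lay below them.

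**Figure D2:**
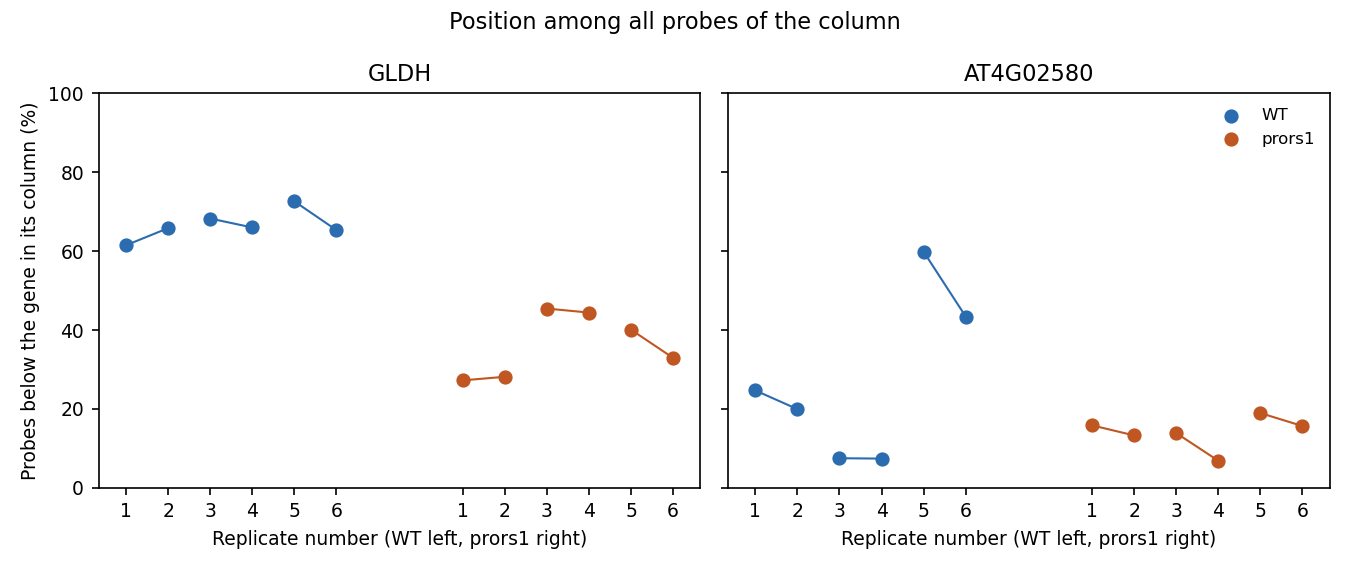
Share of the 3439 probes of the same column that lie below GLDH and below AT4G02580 (y axis, percent) in each of the 12 columns (x axis, replicate number, WT left and prors1 right); lines join the 2 readings of 1 array. GLDH spans 61.5% to 72.7% in WT columns and 27.3% to 45.5% in prors1 columns without overlap, and the WT range of AT4G02580 (7.42% to 59.9%) covers its prors1 range (6.88% to 19.0%) except at the low end.

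For a scale on which genes can be compared between columns, the intensities were quantile normalized with zeros kept, and levels are given as log2(value + 0.0987). Such a log2 difference understates the change of a dim gene. GLDH had a level of -0.84 ± 0.08 in WT and -1.69 ± 0.27 in prors1 (SD, n = 3 arrays). By array, its WT levels were -0.93, -0.82 and -0.76, and its prors1 levels were -1.97, -1.43 and -1.67, so the groups did not overlap. The difference of GLDH was -0.86 ± 0.20 (SE from the limma fit over all tested probes), which corresponds to a level 1.81-fold higher in WT. Against the array of the same number the difference was -1.04, -0.61 and -0.91.

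AT4G02580 had a normalized level of -2.27 ± 1.04 in WT and -2.95 ± 0.31 in prors1 (SD, n = 3 arrays). By array, its WT levels were -2.23, -3.34 and -1.25, and its prors1 levels ran from -3.22 on array 2 to -2.61 on array 3. The groups overlapped, and the lowest level of all was that of WT array 2, where the gene was listed at 0. The difference of AT4G02580 was -0.67 ± 0.42 (SE). The limma fit draws the variance of each probe towards that of all tested probes. This SE therefore understates the spread of AT4G02580 between its own arrays. Against the array of the same number it was -0.77, 0.12 and -1.35, so array 2 ran the other way. Its size rested on single WT arrays. Without WT array 3 the difference was -0.16, and without WT array 2 it was -1.18.

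With zeros treated as missing values, no pseudocount is added and WT array 2 has no value for AT4G02580. For this gene prors1 array 2 then rests on its only reading above 0 (0.0098). The prors1 reading of 0.0050 on array 1 stays in. The difference of AT4G02580 was then -3.57. The part of each of these changes in this value was not tested. GLDH was above 0 in all columns, and its difference under that treatment was -1.14. On the values as deposited the differences were -0.15 for GLDH and -0.22 for AT4G02580, while the median of all tested probes was 0.57 higher in prors1 on the log2 scale. Quantile normalization moved that median to -0.06. The difference of each gene thus lay below the median of all tested probes. For AT4G02580 the groups overlapped, and array 2 ran the other way. The as-deposited log2 difference includes the pseudocount and averages logs over arrays. It is therefore not the same measure as the ratio of mean intensities given above, 1.65 for AT4G02580 and 1.13 for GLDH. The part of the pseudocount in the gap between the measures was not tested. Median scaling gave -0.83 for GLDH and -0.53 for AT4G02580, and cyclic loess gave -0.86 and -0.52.

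**Figure D3:**
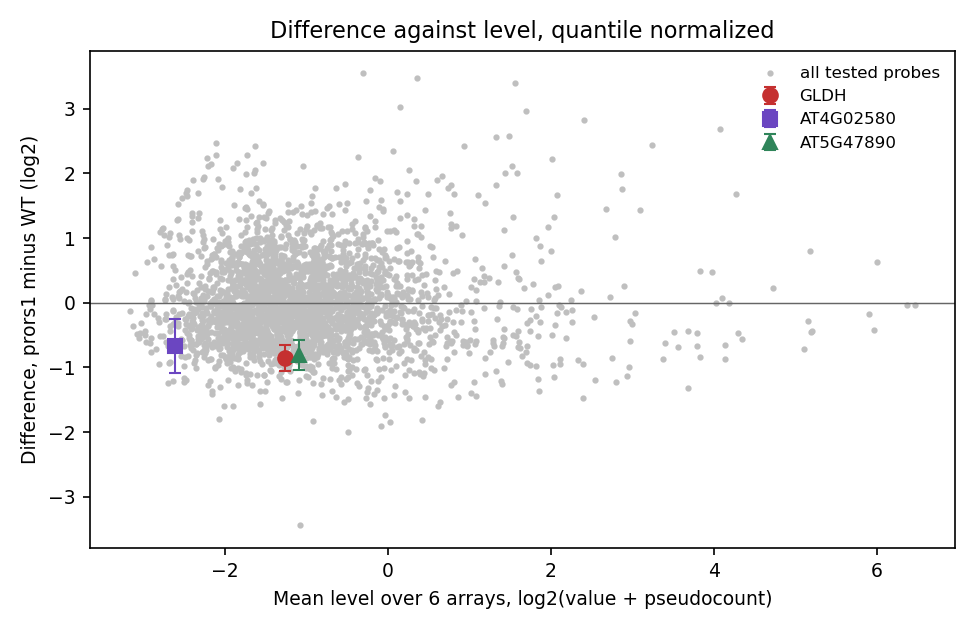
Difference between prors1 and WT (y axis, log2) against the mean level over the 6 arrays (x axis, log2(value + pseudocount)) after quantile normalization, for all 2978 tested probes in grey; coloured points are GLDH, AT4G02580 and AT5G47890, with bars for the standard error. GLDH (-0.86) and AT5G47890 (-0.81) lie close together in the middle of the brightness range, and AT4G02580 (-0.67) lies at its dim end.

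GLDH was of middling brightness, with 45.8% of the 2978 tested probes dimmer in their mean over all arrays. AT4G02580 was among the dimmest, with 2.15% dimmer. Of the tested probes 7.42% had a lower difference than GLDH and 13.6% a lower one than AT4G02580. Among the 200 probes nearest to GLDH in brightness the median difference was -0.09, and 9.50% of them lay lower than GLDH. As deposited, the mean intensity of those 200 probes was higher in prors1 by a median of 0.174, whereas the difference of GLDH was -0.038, and 28 of the 200 were lower in prors1 on the log2 scale. Among the 200 probes nearest to AT4G02580 the median difference was -0.15, and 34 were lower as deposited.

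Repeated readings lay closer together for GLDH than for AT4G02580 on all arrays except WT array 2, where AT4G02580 was listed at 0 in both. The readings of 1 array differed for GLDH by 0.03 to 0.23 on the log2 scale, against a median over tested probes of 0.10 to 0.17. For AT4G02580 they differed by 0.23 to 0.49 on the 5 arrays where either reading was above 0. On prors1 array 1 its readings lay further apart than those of 96.9% of tested probes. Between WT arrays, the SD of GLDH (0.08) was smaller than that of most probes, of which 10.3% had a smaller one. The SD of AT4G02580 between WT arrays (1.04) exceeded that of 99.1% of tested probes. Between prors1 arrays the SDs were 0.27 for GLDH and 0.31 for AT4G02580, beside a median of 0.23.

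The only other complex I gene with a probe of its own was AT5G47890, which encodes the accessory B8 subunit of the matrix arm, and it fell in prors1 after normalization. As deposited, its WT intensity was 0.291 and 0.254 on array 1, 0.485 and 0.434 on array 2, and 0.433 and 0.451 on array 3. In prors1 it was 0.504 and 0.456 on array 1, 0.248 and 0.232 on array 2, and 0.303 and 0.331 on array 3. The deposited intensities overlapped: prors1 array 1 reached the level of the highest WT columns, and prors1 array 3 lay above WT array 1. After normalization its level was -0.69 ± 0.30 in WT and -1.49 ± 0.37 in prors1 (SD, n = 3 arrays), and the groups did not overlap.

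The difference of AT5G47890 was -0.81 ± 0.24 (SE), and it passed the limma fit over all tested probes at an adjusted p of 0.0271. Of all 2978 tested probes, 923 passed (31.0%), 440 of them higher in prors1 (14.8%) and 483 lower (16.2%), so a call of this kind was common. On the values as deposited 1371 were higher and 106 lower. The call of AT5G47890 ended as deposited (difference -0.15, adjusted p = 0.644), with zeros as missing (0.0521) and without a filter on dim probes (0.0877). It also ended without WT array 2 (0.0524), WT array 3 (0.0885), prors1 array 2 (0.104) or prors1 array 3 (0.0575). Against the array of the same number its difference was -0.16, -1.19 and -1.07, so array 1 showed little of it.

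**Figure D4:**
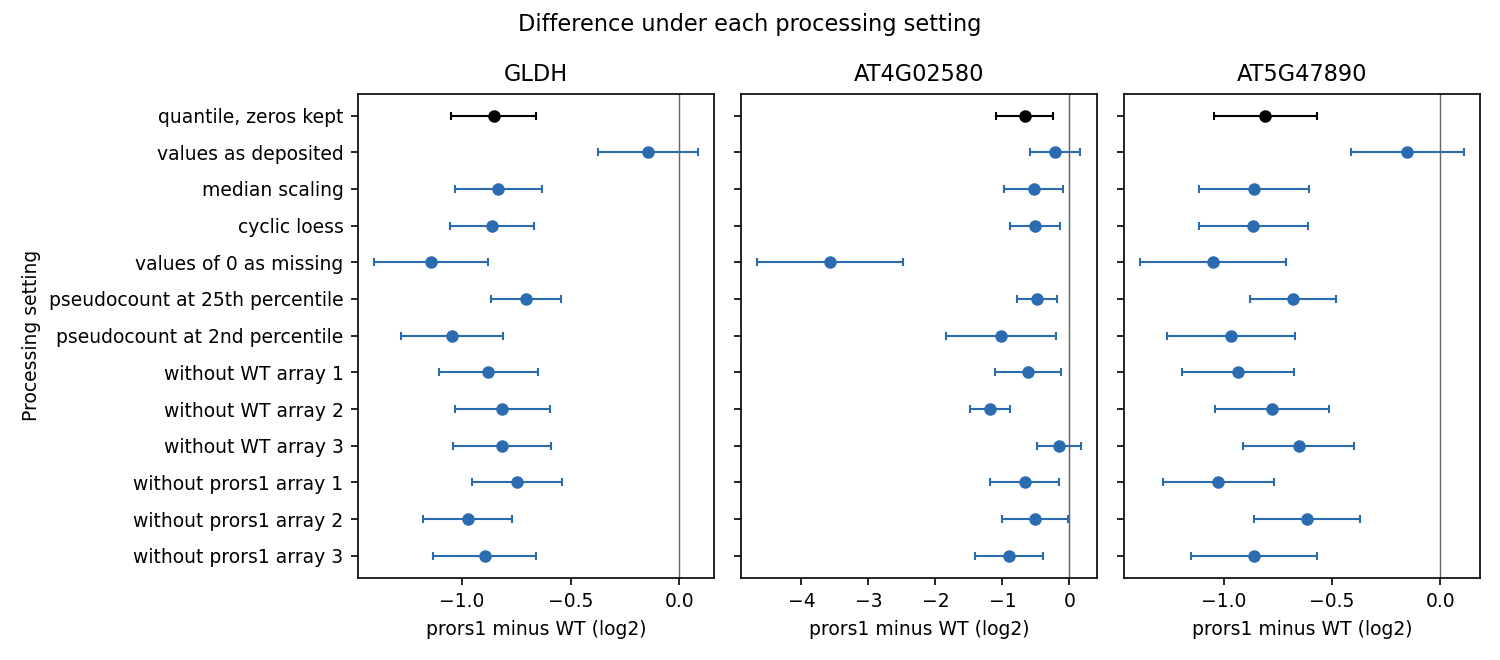
Difference between prors1 and WT (x axis, log2, with its own range in each panel) of GLDH, AT4G02580 and AT5G47890 under each processing setting (y axis); points are fitted differences, bars are standard errors, and the black point is the value reported. GLDH stays between -1.14 and -0.71 in the settings shown except as deposited (-0.15), whereas AT4G02580 runs from -3.57 to -0.16.

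Of the other genes of these pathways few had a probe of their own. Of the 37 other listed nuclear genes for complex I subunits 1 was tested, AT5G47890, with 0 higher and 1 lower in prors1. Of the 9 other listed genes of the ascorbate pathway through L-galactose, the 18 of ascorbate recycling (ascorbate peroxidases and the reductases that restore ascorbate and glutathione), the 13 of the alternative oxidases, alternative NADH dehydrogenases and uncoupling protein, and the 2 other complex I assembly factors, 0 had one. Of 29 listed genes of complexes II to V and cytochrome c, AT5G47030, a subunit of the mitochondrial ATP synthase, had a probe of its own. It was listed at 0 in 5 of 6 WT columns and in 6 of 6 prors1 columns, with 0.0248 in the remaining WT column, and was not tested. A further 5 probes name listed genes together with other genes and were not used for any gene.

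As a check of the plant material, 0 of 16 listed markers of root, pollen and seed had a probe of their own, and neither did any of the 6 listed genes that darkness induces. Of 8 listed genes of light harvesting and Rubisco, LHB1B2, a chlorophyll-binding protein of the photosystem II antenna, was measured. It lay above 99.2% to 99.7% of the probes of every column. Its intensity was 24.9 ± 6.4 in WT and 13.9 ± 4.8 in prors1 (SD, n = 3 arrays), and its normalized difference was -0.46 ± 0.27 (SE, limma adjusted p = 0.211). It was called lower as deposited (difference -0.88, adjusted p = 0.0279) and under median scaling (-1.77, 0.00236). Whether the amount of green tissue moved with GLDH was not tested.

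Profiles were compared among the 592 tested genes with a probe of their own, by the mean absolute difference between levels centred on each gene's mean over the 6 arrays. The 5 genes most like GLDH were AT5G53920 (0.07), AT2G18920 (0.09), AT4G05030 (0.09), AT1G70350 (0.10) and AT3G56250 (0.11), against a median of 0.44 over all genes. Their differences between prors1 and WT ran from -0.73 to -0.67. The distance was taken over the arrays of both groups, so differences near that of GLDH follow from the choice. The 5 most like AT4G02580 were AT2G04700 (0.30), AT1G24310 (0.31), AT1G61590 (0.31), PRA1.B6 (0.31) and AT1G17744 (0.32), against a median of 0.62. The differences of these 5 ran from -1.06 to -0.09. AT2G04700 encodes the catalytic subunit of the plastid ferredoxin-thioredoxin reductase, and PRA1.B6 a prenylated Rab acceptor of the endomembrane system. None of the nearest genes of AT4G02580 lay as close to it as those of GLDH lay to GLDH. The distance between GLDH and AT4G02580 was 0.54, with 64.5% of genes nearer to GLDH. GLDH and AT5G47890 were 0.30 apart, with 23.9% of genes nearer.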

How the data were processed

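The authors deposited linear intensities for each of the samples, which span 0 to 100. How they scanned, background-corrected and scaled the arrays was not given in the sources used here, and the unit is unknown. All 12 columns matched samples, and 0 were left over. Of 3439 probes, 692 name 1 gene, 870 several and 1877 none in the platform annotation of 2016. Symbols were updated through the TAIR10.1 gene table, which 690 of the 692 matched, and a gene with several probes was read from the brightest. Coordinates are left out, since no build is named for the probes.

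Intensities were quantile normalized with zeros kept, a pseudocount of 0.0987 (10th percentile of the values above 0) was added, and log2 levels were averaged per array. Probes above 0 in at least 6 of 12 columns were tested, 2978 in all, and both chosen genes passed. The model was limma 3.58.1 (R 4.3.3) with group as its only term, two-sided, with Benjamini-Hochberg adjustment at 0.05. Its standard errors, also those in the figures, use variances drawn towards that of all tested probes. The fit was tested on simulated data. Deviations of arrays of the same number correlated across probes at 0.288, 0.117 and 0.270, and all others lay below 0. Deviations from a group mean sum to 0, so the values below 0 follow in part from those above it. Over single columns the ranges overlapped, at 0.129 to 0.294 for the same number and -0.196 to 0.157 for other pairings. Columns of different number can belong to arrays of the same number. On this limited basis, the numbers in the titles served as pairs in the comparisons of the same number and in alternative fits with a block. The main fit did not use the pairs. The titles give the numbers without stating a pairing. Total intensity ran from 2312 to 3456 per column. Named are the 2 chosen genes, the members of the pathway lists with a probe of their own, and the 5 genes most like each chosen gene. The genes, lists and tests were chosen with earlier results of these data known.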

Additional observations from a re-analysis of the deposited data

How the results depend on the processing

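Chosen on this contrast, GLDH and AT4G02580 stayed lower in prors1 under all alternatives run. Filters, blocks and columns as separate samples cannot move a difference. The difference of GLDH (-0.86) moved by more than the spread between arrays as deposited (-0.15) and with zeros as missing (-1.14), and ran from -0.97 to -0.75 when 1 column or array was left out. That of AT4G02580 (-0.67) moved with zeros as missing (-3.57) and ran from -1.18 to -0.16 when 1 column or array was left out, while probes above 0 in all columns exclude it. With the pseudocount at the 25th or 2nd percentile the differences were -0.71 or -1.05 for GLDH and -0.49 or -1.02 for AT4G02580. Neither gene has a second probe of its own, so that alternative was not run. The count of changed probes (923, with 440 higher and 483 lower) moved to 1477 as deposited (1371 and 106) and to 1546 with 6 columns as separate samples (700 and 846). With the array number as a replicate block it was 1119, and the calls of AT5G47890 (adjusted p = 0.0268) and LHB1B2 (0.0620) did not change. With the replicate number as a replicate block over 6 columns it was 1673 (762 and 911), and LHB1B2 was then called (adjusted p = 0.0031). Settings over 6 columns add degrees of freedom by splitting arrays, and the block on the array number splits none. With 1 column or array left out the count ran from 605 to 922 (304 to 435 higher, 301 to 487 lower), lowest without prors1 array 2 (605, 301 lower), and without WT array 3 303 were lower. Of the listed genes other than the chosen ones, only AT5G47890 and LHB1B2 were tested in the main fit, too few to read a share from. Of these 1 was called, AT5G47890, while 31.0% of all tested probes were. It was 2 under median scaling (992 probes called over the whole table) and 2 with the replicate block over columns (1673). It was 0 with zeros as missing (764), 0 with no filter (699), and 0 to 1 with 1 column or array left out. As deposited the listed gene called was LHB1B2. Causes beyond those named were not tested. Over the 12 columns in place of the 6 arrays, 5 of the 10 most similar genes were the same. These were 2 of the 5 for GLDH and 3 of the 5 for AT4G02580, so most of the GLDH list was not kept. With no detection calls in the table, how far AT4G02580 lies above background is unknown.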
